A study of Mus musculus with 16 samples.

Results

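The SRY-box (SOX) transcription factors described here are the 3 SOXF genes Sox7, Sox17 and Sox18, and the 2 SOXC genes Sox4 and Sox11, in cultured mouse brain microvascular endothelial cells (mBMEC). They were chosen by name, because SOX18 has been put forward as a target of propranolol that is independent of the β-adrenergic receptors. The values below are RNA levels, and neither SOX18 protein nor its binding by propranolol was measured. All 5 were among the 54193 genes counted, and all 5 passed the filter on low counts that left 14838 genes for testing.

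SOX proteins bind DNA through a high mobility group box and are sorted into groups by the sequence of that box. The SOXF proteins act in endothelium: they take part in arterial specification, in the formation of lymphatic vessels and in vascular integrity, and they can partly replace one another. SOX18 is known for its part in lymphatic development, SOX17 for arterial identity and SOX7 for early vascular development, whereas the SOXC proteins SOX4 and SOX11 act mainly in progenitor cells and developing neurons.

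The cells came from the brains of 8 to 10 week old Cdh5 (PAC)-CreERT2/PDCD10fl/fl mice, in which tamoxifen-inducible Cre is driven by the promoter of the endothelial gene Cdh5. Each culture was made from a pool of brains, and all groups carried the floxed alleles and the Cre transgene. CCM3KO cells (KO) had received 4-hydroxytamoxifen, which deletes Pdcd10 (Ccm3), the gene of a cerebral cavernous malformation protein, and CCM3WT cells (WT) had not, so 4-hydroxytamoxifen and genotype cannot be told apart. Both were left untreated or were given propranolol at 10 µM (+P) or rapamycin at 100 nM (+R) for 24 h, which gave 3 untreated, 2 propranolol and 2 rapamycin libraries of WT cells (WT, WT+P, WT+R) and 3 of each kind of KO cells (KO, KO+P, KO+R). Propranolol is a β-blocker, and rapamycin inhibits the mTOR kinase. All of these are bulk libraries, in which fewer cells of a type and less RNA per cell cannot be told apart.

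Levels are given as CPM, in which counts are divided by library size, or, where genes are compared with each other, as TPM, which are also scaled to transcript length. Depth ranged from 18.83 to 26.2 M estimated counts per library. Pdcd10 was measured at 31.2 and 47.0 CPM in WT replicates 2 and 3 and at 7.83 to 16.7 CPM in the 9 KO, KO+P and KO+R libraries, but at 11.5 CPM in the library labelled WT replicate 1, which is the level of the KO libraries. The 4 treated WT libraries held 27.7 to 60.8 CPM. These sums run over the whole gene and may include reads from outside its deleted part. The log2 fold change of Pdcd10 between KO and WT was −1.56 (SE 0.40, edgeR adjusted p = 0.42, DESeq2 adjusted p = 0.025), or −1.96 without the library labelled WT replicate 1 (edgeR adjusted p = 0.13). The fold changes of the SOX members in KO, WT+P and WT+R against WT are given below with and without this library. All 10 endothelial markers passed the filter, and their summed level lay between 7471 and 15258 CPM. Summed mural markers, mostly Tagln and Acta2, lay between 71.8 and 863 CPM in the untreated libraries. They reached 1435 CPM in WT+P replicate 2 and 1465 and 2566 CPM in the 2 WT+R libraries, and lay between 116 and 453 CPM in the other treated libraries. Fibroblast markers summed to 4.8 to 202 CPM and Lum was at 0 in every library, lymphatic endothelial markers summed to 160 to 335 CPM with Prox1 below the filter, and the astrocyte, microglial, oligodendrocyte and neuronal lists summed to at most 28.6 CPM.

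To show the genes themselves, the 250 bases before the annotated start of the 3 members whose groups stood furthest apart are printed from the GRCm39 genome, 5′ to 3′ on the strand of the gene. Capitals mark every match, on either strand, to AACAAT (a SOX core), TGACG (a cAMP response element core), TGGGAA (an RBPJ core) or CACCC (a KLF core).
Sox18, chr2:181313439-181313688, minus strand: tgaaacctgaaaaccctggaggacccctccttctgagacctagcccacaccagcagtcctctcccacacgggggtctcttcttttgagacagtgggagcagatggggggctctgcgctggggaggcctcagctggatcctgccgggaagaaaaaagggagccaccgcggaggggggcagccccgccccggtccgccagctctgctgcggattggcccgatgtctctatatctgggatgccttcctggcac
Sox11, chr12:27392574-27392823, minus strand: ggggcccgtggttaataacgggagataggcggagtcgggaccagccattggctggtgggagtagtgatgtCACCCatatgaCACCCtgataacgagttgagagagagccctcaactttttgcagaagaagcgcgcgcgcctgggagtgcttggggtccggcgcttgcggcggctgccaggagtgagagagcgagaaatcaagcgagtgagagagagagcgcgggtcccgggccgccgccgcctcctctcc
Sox4, chr13:29137697-29137946, minus strand: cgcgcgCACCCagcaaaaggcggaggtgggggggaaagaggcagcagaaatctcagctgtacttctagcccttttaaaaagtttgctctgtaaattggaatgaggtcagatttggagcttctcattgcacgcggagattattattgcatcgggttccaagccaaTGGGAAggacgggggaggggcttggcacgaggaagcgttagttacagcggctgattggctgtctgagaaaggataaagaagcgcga
None of these motifs was found in the Sox18 window or in that of Sox7, the Sox11 window held CACCC at 2 places, that of Sox17 held it at 3, and the Sox4 window held TGGGAA once and CACCC once. Among 21770 promoter windows of the same length, 10.3% held AACAAT, 16.3% TGACG, 23.2% TGGGAA and 51.3% CACCC. A match of letters is a description and not a binding site.

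Sox18 was the most abundant SOX transcript in these cells. Its level per length averaged 744 TPM over the 16 libraries, ahead of Sox17 at 217 TPM, Sox13 at 55.3 TPM, Sox7 at 55.2 TPM and Sox4 at 44.9 TPM. In the 6 untreated libraries Sox18 ranked between 94 and 201 among all genes by TPM. Sox11 was low, at a mean of 1.21 TPM, and Sox12, the remaining SOXC gene, averaged 1.63 TPM. Of the 14 other SOX genes examined, only Sox6, Sox9, Sox12 and Sox13 passed the filter, and Sox1 and Sox14, genes of the early nervous system, had no count in any library.

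**Figure D1:**
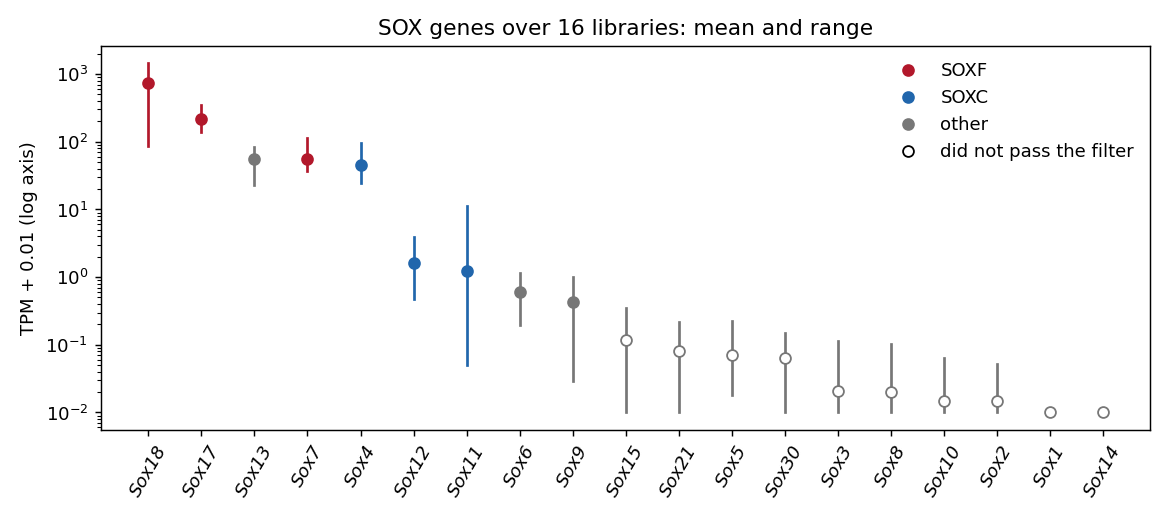
Mean (points) and range (lines) of the level of each SOX gene over the 16 libraries, in TPM + 0.01 on a log axis, coloured by SOX group, with open points for genes that did not pass the filter on low counts. Sox18 at 744 TPM and Sox17 at 217 TPM lie above all others, and the line of Sox18 runs from 85.7 to 1440 TPM.

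Sox18, Sox7, Sox4 and Sox11 each had a single annotated transcript in the files. Sox18 lies on chromosome 2 at 181311629 to 181313438 (GRCm39, minus strand, 2 exons), and 25.8% of its exonic bases overlap the gene Gm74574 on the other strand. Sox17 lies on chromosome 1 at 4561151 to 4567784 (minus strand) and had 8 transcripts, of which Sox17-202 carried a median of 34.8% of the gene's TPM and Sox17-204 a median of 30.6%. Sox7 lies on chromosome 14 at 64181006 to 64188352 (plus strand), Sox4 on chromosome 13 at 29132902 to 29137696 (minus strand, 1 exon) and Sox11 on chromosome 12 at 27384263 to 27392573 (minus strand, 1 exon). Since the libraries were unstranded, reads of Sox18, Sox17 (19.0% of exonic bases overlapped by Gm37587) and Sox4 (18.9% overlapped by A330102I10Rik) could not be told apart from reads of their antisense neighbours.

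Propranolol was the treatment under which Sox18 stood lowest. In the KO replicates 1 to 3, Sox18 was at 1230, 694 and 989 CPM, and in the KO+P replicates 1 to 3 at 104, 130 and 646 CPM. All 3 treated libraries were below all 3 untreated ones, with KO+P replicate 3 just under the lowest KO library and the other 2 far below. The fitted log2 fold change was −1.73 (SE 0.70, 95% confidence interval −3.24 to −0.22), a 3.31-fold lower level that did not pass the test (edgeR quasi-likelihood test, adjusted p = 0.358). Over all tested genes, 18.7% had groups that did not overlap in this comparison. Between libraries with the same replicate number the level was 11.9-fold, 5.33-fold and 1.53-fold lower with propranolol.

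The Sox18 result depended on which KO+P libraries were in the fit. Without KO+P replicate 3, the log2 fold change of Sox18 was −3.05 (edgeR adjusted p = 0.0372), and the number of all genes called in KO+P against KO went from 1 to 332. Without KO+P replicate 1 or 2 the log2 fold change was −1.32 or −1.37, with adjusted p = 0.99 and 0.598. With the replicate number as a block it was −2.0 (edgeR adjusted p = 0.136).

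Sox18 stood low with propranolol in WT cells as well. The WT replicates 1 to 3 had 1100, 773 and 686 CPM, and the WT+P replicates 1 and 2 had 69.0 and 474 CPM. Both treated libraries were below all 3 untreated ones, and on the log2 scale they differed from each other more than the untreated libraries did. In WT+P against WT the log2 fold change was −1.65 (SE 0.81, 95% confidence interval −3.39 to 0.09) and did not pass the test (edgeR adjusted p = 0.52), and 21.2% of all tested genes had groups that did not overlap. It was −1.43 without the library labelled WT replicate 1, −0.85 without WT+P replicate 1 and −3.63 without WT+P replicate 2 (edgeR adjusted p = 0.0652), where the number of all genes called went from 1 to 546. The same-number ratios were 15.9-fold lower for replicate 1 and 1.63-fold lower for replicate 2.

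The response of Sox18 to propranolol was not shown to depend on genotype. The difference between the log2 fold changes in KO and in WT was −0.08 (SE 1.02, 95% confidence interval −2.28 to 2.12, edgeR adjusted p = 1), an interval that covers differences of more than 4-fold in either direction. Loss of Ccm3 alone left Sox18 at 972 ± 269 CPM in KO against 853 ± 218 CPM in WT (SD, n = 3 and 3), with overlapping groups and a log2 fold change of 0.19 (SE 0.68, edgeR adjusted p = 0.997), or 0.41 without the library labelled WT replicate 1.

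**Figure D2:**
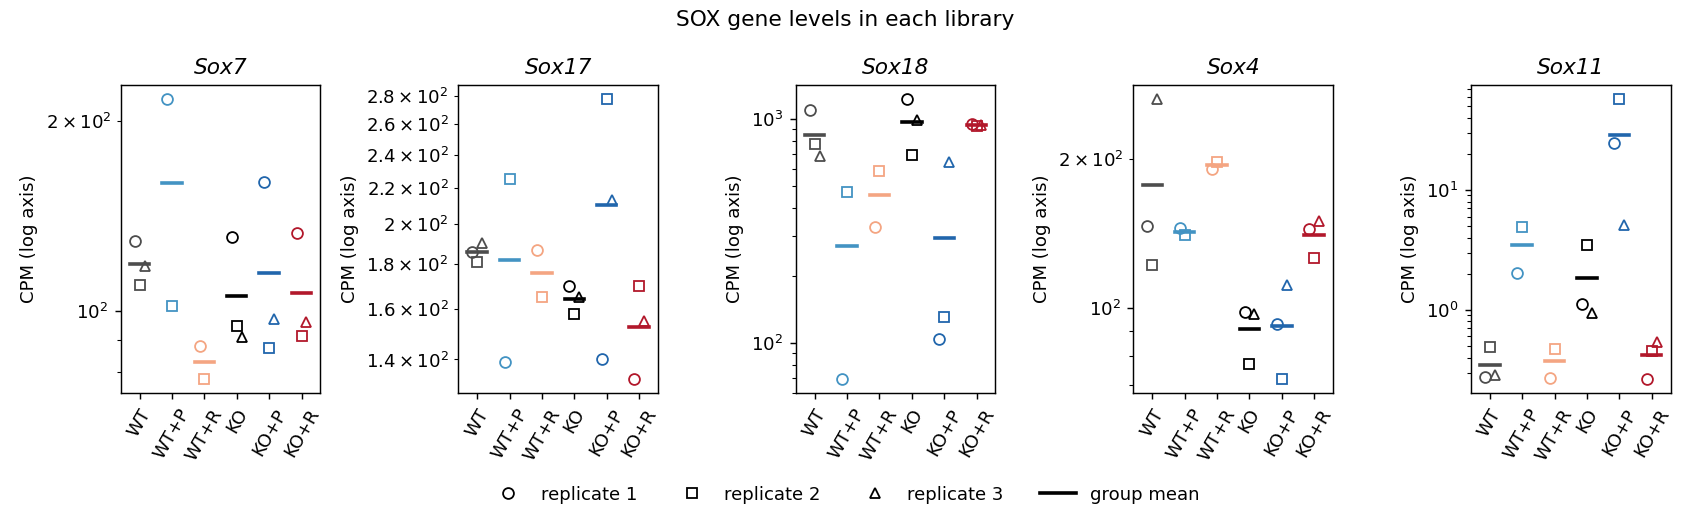
Level of each of the 5 SOX genes in every library, in CPM on a log axis, with open symbols for replicates 1, 2 and 3 and a bar for the group mean. Sox18 is lowest in WT+P replicate 1, KO+P replicate 1 and KO+P replicate 2, and Sox11 is highest in the KO+P libraries.

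Endothelial markers were also lower in sum in the propranolol libraries. Their summed level was 12014 to 15117 CPM in WT and 7471 and 11530 CPM in WT+P, and 12516 to 13977 CPM in KO and 8098 to 12193 CPM in KO+P, with WT+P replicate 1 and KO+P replicate 1 lowest. None of the 10 markers passed the test in either genotype, although all 10 had log2 fold changes below 0 in both, with medians of −0.38 in KO and −0.53 in WT against −0.01 and 0 over all tested genes. Unadjusted p-values under 0.05 were found for 3 of the 10 in each genotype, against 12.6% of all tested genes in KO and 9.87% in WT, and DESeq2 called 0. Between libraries of the same number the sum fell by a smaller factor than Sox18 in all 5 pairs, and its part in the Sox18 result was not tested.

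The make-up of the SOXF transcripts differed between libraries. Sox18 made up 72.7 to 84.5% of the summed SOXF TPM in the 6 untreated libraries and 80.8 to 83.1% in KO+R. Its share was 22.3% in WT+P replicate 1, 33.3% in KO+P replicate 1 and 27.6% in KO+P replicate 2, where Sox17 was the most abundant SOXF transcript, with 48.5, 46.9 and 64.2%. In WT+P replicate 2 and KO+P replicate 3 Sox18 remained the most abundant, with 62.0 and 70.7%.

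**Figure D3:**
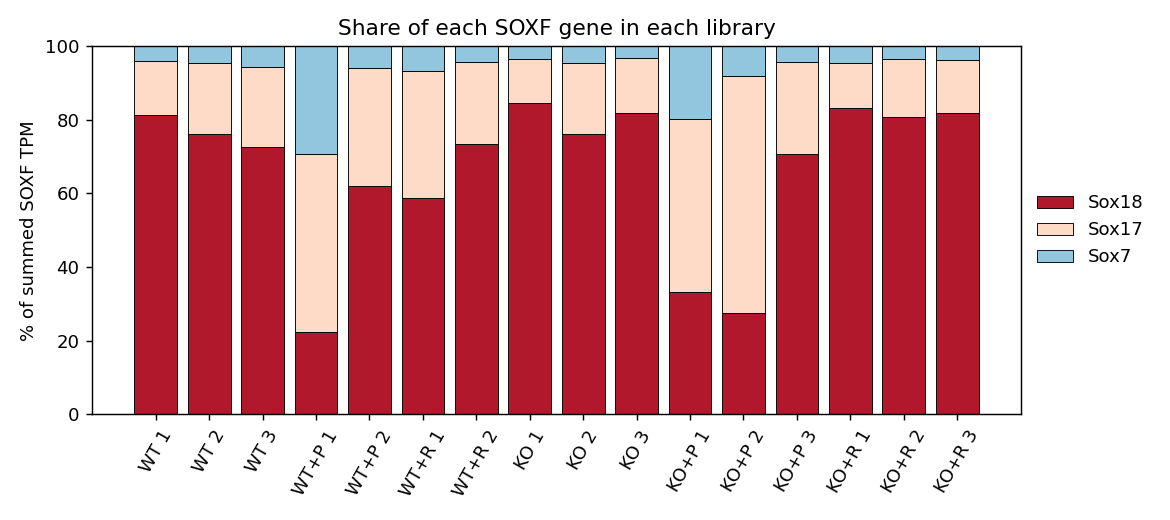
Stacked shares of Sox18, Sox17 and Sox7 in the summed TPM of the 3 SOXF genes, in percent, for each library. Sox18 makes up more than 70% in every untreated library and the smallest share, 22.3%, in WT+P replicate 1.

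Sox17 and Sox7 did not follow Sox18. Sox17 was at 164 ± 5.92 CPM in KO and 210 ± 68.7 CPM in KO+P (SD, n = 3 and 3), where replicates 1 to 3 had 140, 278 and 213 CPM, on both sides of the KO libraries. Its log2 fold changes with propranolol were 0.36 in KO (SE 0.22, 95% confidence interval −0.11 to 0.82) and −0.03 in WT (SE 0.24, 95% confidence interval −0.55 to 0.49), with edgeR adjusted p = 0.496 and 0.983. Sox7 was at 106 ± 21.9 CPM in KO and 115 ± 39.5 CPM in KO+P, and its log2 fold changes were 0.12 in KO (95% confidence interval −0.48 to 0.73) and 0.42 in WT (95% confidence interval −0.25 to 1.09). Without the library labelled WT replicate 1, those in WT were −0.03 for Sox17 and 0.47 for Sox7. The library with the lowest Sox18 level, WT+P replicate 1, had the highest Sox7 level at 217 CPM, and WT+P replicate 2 had 102 CPM. Over the 16 libraries and on the log2 scale, the correlation of Sox18 was −0.44 with Sox7 and −0.04 with Sox17, values that describe libraries which share treatments and replicate numbers.

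Sox11 moved in the opposite direction to Sox18 under propranolol. It was at 1.12, 3.45 and 0.933 CPM in KO replicates 1 to 3 and at 24.5, 57.4 and 5.06 CPM in KO+P replicates 1 to 3. All 3 treated libraries were above all 3 untreated ones, and 18.7% of all tested genes had groups that did not overlap. Replicate 2 was the highest Sox11 library in both groups. The fitted log2 fold change was 3.97 (SE 0.77, 95% confidence interval 2.30 to 5.65), a 15.7-fold higher level that did not pass the test without a block (edgeR adjusted p = 0.131). With the replicate number as a block, Sox11 was called higher (log2 fold change 3.80, edgeR adjusted p = 0.0138), and it was also called without KO+P replicate 3 (4.47, edgeR adjusted p = 0.0104). DESeq2 called it as well (3.98, adjusted p = 2.16e-05). The same-number ratios were 21.8-fold, 16.6-fold and 5.43-fold higher. Sox11 is on the study's list of genes that differed between KO and WT in these same libraries, a list that also gives their changes under each drug, so its direction here is not independent evidence.

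In WT cells the level of Sox11 was lower but shifted the same way. It was at 0.276, 0.486 and 0.287 CPM in WT replicates 1 to 3, which are 6, 13 and 7 counts, and at 2.03 and 4.89 CPM in WT+P replicates 1 and 2, which are 44 and 124 counts. The groups did not overlap, as was so for 21.2% of all tested genes. The log2 fold change of Sox11 was 3.28 (SE 0.85, 95% confidence interval 1.43 to 5.13, edgeR adjusted p = 0.298), or 3.14 without the library labelled WT replicate 1. DESeq2 called Sox11 higher here (3.29, adjusted p = 0.0187). The difference between the genotypes in the response was 0.69 on the log2 scale (SE 1.14, edgeR adjusted p = 1).

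Sox11 stood higher and Sox4 lower in KO than in WT, and neither difference passed the edgeR test. Sox11 averaged 1.84 ± 1.40 CPM in KO and 0.35 ± 0.118 CPM in WT (SD, n = 3 and 3). Its lowest KO library was above the highest WT library, and 13.2% of all tested genes had groups that did not overlap. The log2 fold change was 2.37 (SE 0.80, edgeR adjusted p = 0.595), or 2.22 without the library labelled WT replicate 1. With the replicate number as a block it was 2.27 in edgeR (adjusted p = 0.116) and 2.23 in DESeq2, which then called Sox11 (adjusted p = 0.00894, or 0.135 without the block). It was 1.53 without KO replicate 2, which held 91 Sox11 counts where the other KO libraries held 29 and 21. The same-number ratios were 4.07-fold, 7.11-fold and 3.25-fold higher.

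Sox4 was at 146, 122 and 264 CPM in WT replicates 1 to 3 and at 98.0, 77.0 and 97.4 CPM in KO replicates 1 to 3. Every KO library was below every WT library, and WT replicate 3 was far above the other 2. The log2 fold change was −0.96 (SE 0.24, 95% confidence interval −1.49 to −0.44), a 1.95-fold lower level (edgeR adjusted p = 0.392), and 13.2% of all tested genes had groups that did not overlap. It was −1.10 without the library labelled WT replicate 1 and −0.56 without WT replicate 3, and with the replicate number as a block it was −0.91 (edgeR adjusted p = 0.052). DESeq2 called Sox4 lower (−0.97, adjusted p = 0.0299). The same-number ratios were 1.48-fold, 1.59-fold and 2.71-fold lower.

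The other members differed little between KO and WT. The log2 fold change was −0.17 for Sox7 (SE 0.28, 95% confidence interval −0.78 to 0.43) and −0.18 for Sox17 (SE 0.22, 95% confidence interval −0.64 to 0.29), both with edgeR adjusted p = 0.996, and −0.12 and −0.18 without the library labelled WT replicate 1. Sox4 stayed near its untreated level with propranolol: it was at 92.6, 71.9 and 111 CPM in KO+P and at 145 and 140 CPM in WT+P, with log2 fold changes of 0.02 in KO (95% confidence interval −0.50 to 0.54) and −0.32 in WT (95% confidence interval −0.90 to 0.27), or −0.45 without the library labelled WT replicate 1.

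**Figure D4:**
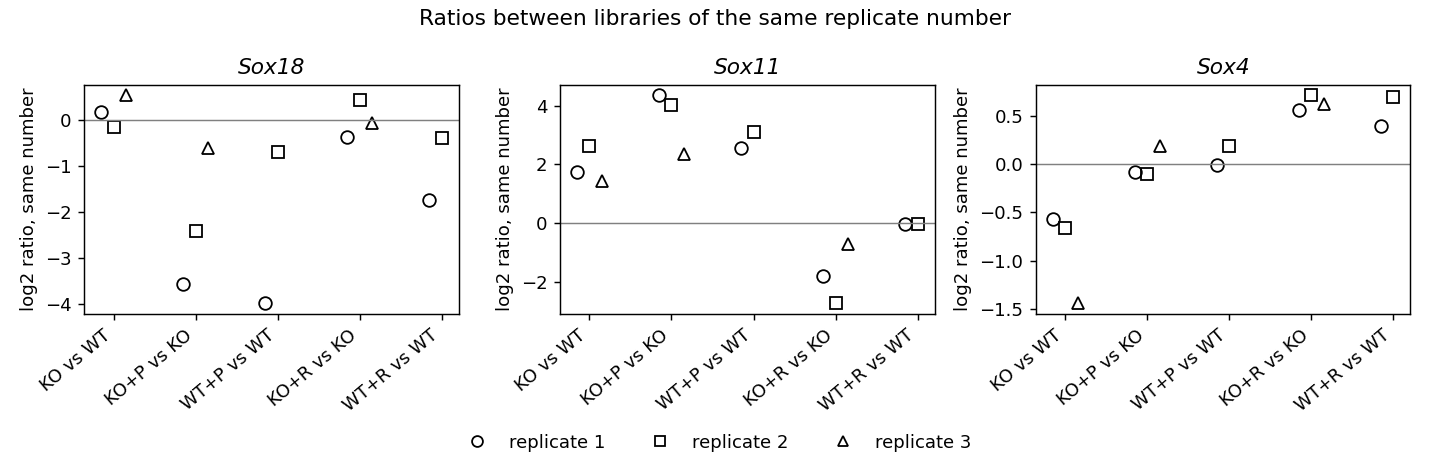
The log2 ratio of Sox18, Sox11 and Sox4 between libraries of the same replicate number, for each comparison, with one symbol per replicate number. All 5 propranolol ratios of Sox18 lie below 0 and all 5 of Sox11 above 0.

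Rapamycin went with Sox4 and Sox11 levels in KO cells that lay on the WT side of the untreated KO libraries. KO+R and WT are both compared with the same 3 KO libraries, so an extreme level there would place both on the same side. These comparisons are therefore not independent. Sox4 was at 144, 126 and 150 CPM in KO+R replicates 1 to 3, above all 3 KO libraries, with a log2 fold change of 0.63 (SE 0.24, 95% confidence interval 0.11 to 1.15, edgeR adjusted p = 0.283). With the replicate number as a block the value was 0.63 and Sox4 was called higher (edgeR adjusted p = 0.0389), and the same-number ratios were 1.47-fold, 1.63-fold and 1.54-fold higher. Sox11 was at 0.265, 0.451 and 0.535 CPM in KO+R, or 5, 11 and 12 counts, below all 3 KO libraries (log2 fold change −2.12, SE 0.79, edgeR adjusted p = 0.265). With the replicate number as a block it was −1.93 in edgeR (adjusted p = 0.075) and −1.83 in DESeq2, which then called Sox11 lower (adjusted p = 0.0179, or 0.0991 without the block). Without KO replicate 2 the log2 fold change of Sox11 was −1.28. Over all tested genes, 24.1% had groups that did not overlap between KO+R and KO.

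In WT cells rapamycin left Sox4 at 191 and 197 CPM, within the range of the WT libraries, and Sox11 at 0.269 and 0.473 CPM. The log2 fold changes were 0.13 for Sox4 (SE 0.27) and 0.07 for Sox11 (SE 0.97), neither of which passed the test. Without the library labelled WT replicate 1 they were 0.01 and −0.06. The difference between the genotypes in the rapamycin response was −2.19 for Sox11 (SE 1.25, edgeR adjusted p = 1) and 0.49 for Sox4 (SE 0.36, edgeR adjusted p = 1).

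Sox18 was steady under rapamycin in KO cells, at 953, 932 and 939 CPM. Its log2 fold change was −0.05, but the 95% confidence interval ran from −1.51 to 1.42 because all groups shared one estimate of the spread. In WT+R the libraries were at 328 and 584 CPM, both below the 3 WT libraries, with a log2 fold change of −0.90 (SE 0.78, edgeR adjusted p = 0.728), and 28.6% of all tested genes had groups that did not overlap. The genotype difference in this response was 0.86 (SE 1.03, edgeR adjusted p = 1). Sox7 was at 88.1 and 78.1 CPM in WT+R, below the WT libraries at 110 to 129 CPM (log2 fold change −0.52, SE 0.32), and at 107 ± 22.7 CPM in KO+R (log2 fold change 0.02). Sox17 was between 133 and 187 CPM in the 5 rapamycin libraries, with log2 fold changes of −0.10 in KO and −0.08 in WT. Without the library labelled WT replicate 1, the log2 fold changes in WT+R were −0.68 for Sox18, −0.46 for Sox7 and −0.08 for Sox17.

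Counted over the 5 members, edgeR called 0 at adjusted p under 0.05 and a fold change over 1.5 in each comparison counted here. In other pairs of groups it called Sox11 in KO+P against WT (log2 fold change 6.34, edgeR adjusted p = 0.00633) and against WT+R (6.27, 0.00445). It also called Sox11 in KO+R against KO+P (−6.09, 0.00311). Sox4 was called in KO and in KO+P against WT+R (−1.10 and −1.08, 0.0355 and 0.0255). By p-value, Sox11 ranked 20, 196 and 54 among all tested genes in these pairs, and Sox4 491 and 774. At least 491 and 774 genes therefore had an adjusted p under 0.05 in the 2 pairs of Sox4. The share of all tested genes called in these pairs was not counted. All of them but KO+R against KO+P differ in both genotype and drug, which cannot be told apart there. In KO against WT, 0.00674% of all tested genes were called by edgeR, and 2 of the 5 members (Sox4 and Sox11) and 6.07% of all tested genes had an unadjusted p under 0.05. DESeq2 called 1 member and 64 genes in all. In KO+P against KO, 0.00674% of all tested genes were called by edgeR, and 2 of the 5 members (Sox11 and Sox18) and 12.6% of all tested genes had an unadjusted p under 0.05. DESeq2 called 1 member and 164 genes in all. In WT+P against WT, 0.00674% of all tested genes were called by edgeR, and 1 member (Sox11) and 9.87% of all tested genes had an unadjusted p under 0.05. DESeq2 called 1 member and 119 genes in all. With rapamycin, 1.51% of all tested genes were called in KO and 1.4% in WT. An unadjusted p under 0.05 was found for 2 members (Sox11 and Sox4) and 12.5% of all tested genes in KO and for 0 members and 12.6% of all tested genes in WT. DESeq2 called 0 members in both, against 473 genes in all in KO and 542 in WT. For the difference of either treatment between the genotypes, edgeR called 0% of all tested genes. An unadjusted p under 0.05 was found for 0 members, against 0.721% of all tested genes for propranolol and 0.762% for rapamycin, and DESeq2 called 0 members.

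A test over all 6 groups at once, in which 7.68% of all tested genes passed, was passed by Sox11 (edgeR adjusted p = 0.00108) and by Sox4 (edgeR adjusted p = 0.0443). It was not passed by Sox18 (adjusted p = 0.28, or 0.0371 without KO+P replicate 3), Sox7 (0.453) or Sox17 (0.651). Sox11 passed it without any one of the 16 libraries, whereas Sox4 passed it only without WT replicate 2, WT replicate 3, WT+P replicate 2 or KO+P replicate 3, and had adjusted p from 0.0516 to 0.103 without any one of the other 12.

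By mean CPM, the groups of Sox11 were ordered KO+P (29.0), WT+P (3.46), KO (1.84), KO+R (0.417), WT+R (0.371) and WT (0.35). The KO+P libraries did not overlap with those of WT+P (log2 difference 3.06, SE 0.87, edgeR adjusted p = 0.524), nor did KO with KO+R, and the other neighbouring groups overlapped. For Sox4 the order was WT+R (194), WT (177), WT+P (142), KO+R (140), KO+P (91.9) and KO (90.8), and only KO+R and KO+P did not overlap among neighbours. For Sox18 it was KO (972), KO+R (941), WT (853), WT+R (456), KO+P (293) and WT+P (272), and only WT and WT+R did not overlap. Over all tested genes, 24.1% did not overlap between KO and KO+R and 28.6% between WT and WT+R. For the other pairs named here this share was not counted, so their lack of overlap cannot be set against that of other genes. None of the 25 steps between neighbouring groups of the 5 members passed the edgeR test, and 1 did with DESeq2 (Sox11, KO+P against WT+P). The groups were ordered by their means in these same libraries, so neighbours are the closest groups by that choice. A low count of steps follows in part from it.

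Genes linked to SOXF factors in endothelium were examined as a list of 11, of which Mmp7 and Prox1 did not pass the filter. None of the 9 tested genes was called with propranolol in either genotype, and their median log2 fold changes were −0.31 in KO and −0.50 in WT, against −0.01 and 0 over all tested genes. In each genotype 3 of the 9 had an unadjusted p under 0.05, against 12.6% of all tested genes in KO and 9.87% in WT, and DESeq2 called 0. The smallest p-value was that of Kdr, a receptor for vascular endothelial growth factor, in KO, with 59.2, 83.4 and 300 CPM in KO+P replicates 1 to 3 against 373, 276 and 384 CPM in KO (log2 fold change −1.22, SE 0.54, edgeR adjusted p = 0.379). Without KO+P replicate 3 the log2 fold change of Kdr was −2.27 (edgeR adjusted p = 0.0303). In WT it was that of Cldn5, a tight junction protein of the blood-brain barrier (log2 fold change −1.03, SE 0.36, edgeR adjusted p = 0.449), which was −1.82 without WT+P replicate 2 (edgeR adjusted p = 0.0317). Cdh5, Kdr and Cldn5 are also among the endothelial markers whose sum was lower with propranolol.

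Vcam1, a leukocyte adhesion molecule that SOX18 is known to activate, rose with rapamycin in both genotypes. It was at 100, 154 and 94.9 CPM in KO and 663, 420 and 253 CPM in KO+R (log2 fold change 1.94, SE 0.35, edgeR adjusted p = 0.0169). These groups did not overlap, as was so for 24.1% of all tested genes. In WT it was at 136, 254 and 169 CPM and in WT+R at 758 and 578 CPM (log2 fold change 1.84, SE 0.37, edgeR adjusted p = 0.0282). Dll4, a Notch ligand of arterial and tip cells, fell in WT+R to 117 and 185 CPM from 553, 565 and 741 CPM (log2 fold change −2.04, SE 0.37, edgeR adjusted p = 0.0183). The other genes of the list were not called with rapamycin by edgeR, whereas DESeq2 also called Dll4 in KO and Cdh5 in WT. The call of Vcam1 in KO was lost without KO replicate 1 or 3 or KO+R replicate 1 (adjusted p 0.0601 to 0.0916), its call in WT without WT replicate 1 or 3 or WT+R replicate 1 or 2 (0.0763 to 0.256), and that of Dll4 without WT replicate 3 or WT+R replicate 1 or 2 (0.0595 to 0.251). All 3 were also lost in fits to the libraries of the compared groups alone, with adjusted p of 0.0527 for Vcam1 in KO, 0.125 for Vcam1 in WT and 0.0862 for Dll4.

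Among 7 partners and regulators of SOXF factors, all tested, Ets1, an ETS factor of endothelial cells, fell with rapamycin. Its level was 305 ± 21.1 CPM in KO and 190 ± 9.06 CPM in KO+R (log2 fold change −0.68, SE 0.14, edgeR adjusted p = 0.0316), and 350 ± 77.3 CPM in WT and 186 ± 24.3 CPM in WT+R (log2 fold change −0.91, SE 0.16, edgeR adjusted p = 0.0177). Rbpj, which mediates Notch signalling and is a partner of SOXF factors at arterial genes, rose in WT+R (log2 fold change 0.74, SE 0.17, edgeR adjusted p = 0.0484). None of the 7 was called with propranolol or between KO and WT by edgeR or DESeq2, and 1 of them, Ctnnb1 in KO+P against KO, had an unadjusted p under 0.05. The call of Ets1 in KO was lost without any one of the 6 KO and KO+R libraries (adjusted p 0.0812 to 0.134) and in WT without either WT+R library (0.129 and 0.13). That of Rbpj was lost without any one of 11 libraries, among them the library labelled WT replicate 1 (0.141), with the highest adjusted p, 0.521, without WT+R replicate 1. In fits to the WT and WT+R libraries alone, Ets1 (0.224) and Rbpj (0.216) were not called.

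In a list of 5 genes linked to SOXC factors, Dcx did not pass the filter and 0 of the other 4 were called in any of the 5 comparisons by edgeR or DESeq2 or had an unadjusted p under 0.05. Tubb3, a neuronal tubulin, had the smallest p-value of them with propranolol, with log2 fold changes of 0.97 in KO (SE 0.61, edgeR adjusted p = 0.52) and 1.14 in WT (SE 0.67, edgeR adjusted p = 0.586). None of the 4 other SOX genes tested was called in any of the 5 comparisons by edgeR or DESeq2 or had an unadjusted p under 0.05. Sox13, the most abundant of them, was at 126, 143 and 154 CPM in KO and 53.4, 93.8 and 136 CPM in KO+P (log2 fold change −0.58, SE 0.35, edgeR adjusted p = 0.493).

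Genes with a pattern most like that of each member were found by Pearson correlation of log2 CPM over the 16 libraries, leaving out genes below a mean of 1 CPM. For Sox18 these were Nrarp (r = 0.982), Txnip (r = 0.959) and Hadh (r = 0.955), which encode a Notch-regulated ankyrin repeat protein, a thioredoxin-interacting protein and a mitochondrial enzyme of fatty acid oxidation. Nrarp was at 8.51 and 51.5 CPM in WT+P and at 10.4, 21.2 and 85.4 CPM in KO+P, against 93.2 to 161 CPM in the 6 untreated libraries. With rapamycin it was at 40.1 and 53.8 CPM in WT+R and at 114, 87.2 and 131 CPM in KO+R. Since Nrarp was picked by its correlation with Sox18 over these libraries, its likeness to Sox18 follows from that choice. As with Sox18, its log2 fold changes with propranolol, −1.85 in KO and −1.96 in WT, did not pass the test (edgeR adjusted p = 0.339 and 0.475). For Sox11 they were Atp6v1h (r = 0.95), a subunit of the vacuolar proton pump, Kif3c (r = 0.948), a kinesin motor, and Lrrc20 (r = 0.932). For Sox4 they were Csnk1a1 (r = 0.922), a casein kinase, the transcription factor gene Foxc1 (r = 0.904) and 4932441J04Rik (r = 0.899).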

How the data were processed

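RNA-seq values of 16 mBMEC libraries were used, with groups and replicate numbers from the sample labels. For every library the authors deposited Salmon-style tables with one line per transcript, which held expected counts, TPM and effective lengths. The deposited expected counts are estimates of reads with no scaling between libraries, the deposited TPM are scaled within each library by transcript length, and the deposited effective length is a signal value in bases. The submitters' processing notes name Trim Galore 0.6.7, Salmon 1.5.2, HTSeq 0.13.5, DESeq2 1.34.0, R 4.2.2 and GRCm39, and the study's methods describe STAR alignment to GRCm39 with Ensembl annotation. The Salmon index was not given in the sources used here. Libraries were poly(A)-selected, paired-end and unstranded.

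Of 140789 transcripts, 139544 (99.12%) were named in GENCODE M39, with 99.43 to 99.61% of the counts, and 0 columns were left unused. Counts were summed per gene and rounded. Genes were filtered with filterByExpr (14838 of the 27253 with any count were left), scaled by TMM (factors 0.934 to 1.041) and tested with edgeR 4.0.16 (quasi-likelihood test, a term per group, all 16 libraries, 10 residual degrees of freedom, R 4.3.3). The biological coefficient of variation was 32.3%. P-values were adjusted by Benjamini-Hochberg over all tested genes. A gene was called at an adjusted p under 0.05 and a fold change over 1.5, after the study's criteria, and interactions and the test over all groups by adjusted p alone. CPM were TMM-normalised, and CPM were compared between groups and TPM between genes. Sequences were read from the GRCm39 genome upstream of the most abundant transcript. Alternatives included DESeq2 1.42.0, a replicate block, other scaling and filters, effective lengths and leaving out each library, and the test was tried on simulated data.

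The deviations of same-numbered libraries from their group means correlated at 0.19 to 0.69 in the 5 comparisons. Over all pairs of groups they correlated at 0.03 to 0.69. Same-number ratios and a replicate block were therefore added as alternatives, while the main fits held no block and did not use this pairing. The pairing comes from the values, since neither the labels nor the study's methods state it.

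The members and lists were chosen with earlier results of these data known. The text names the 5 members, Pdcd10, list genes called in a comparison or with the smallest p of their list in one, and the 3 genes most similar to each member.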

Additional observations from a re-analysis of the deposited data

How the results depend on the processing

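The number of the 5 SOX genes called moved with the test. With the replicate number as a block in edgeR it was 1 in KO+P against KO (Sox11), 1 in KO+R against KO (Sox4) and 1 of the 25 steps between neighbouring groups (Sox4, KO+R against KO+P), in place of 0, and the block changed no other count of these genes. Without a filter it was 1 in KO+P against KO. With DESeq2 it was 1 in KO against WT, 1 in KO+P against KO, 1 in WT+P against WT and 1 of the neighbouring steps. With DESeq2 and the replicate block it was 2 in KO against WT, 1 in KO+P against KO, 2 in KO+R against KO, 1 in WT+P against WT and 3 of the neighbouring steps. In the test over all groups it was 1 in place of 2 with effective lengths. With DESeq2 and the replicate block, 1 further member passed that test. Leaving out single libraries gave 0 to 2 in KO+P against KO and 0 to 1 of the neighbouring steps (1 without WT replicate 3). In the test over all groups it gave 1 to 3, where 3 (Sox11, Sox4 and Sox18) passed without KO+P replicate 3. The cause was not tested.

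Counts over all genes also moved. KO+P against KO had 1 call, 21 with the block, 52 without a filter, 164 with DESeq2 and 0 with only the groups compared. WT+P against WT had 1, 12, 36, 119 and 0, KO against WT 1, 27, 5, 64 and 0, KO+R against KO 224, 739, 239, 473 and 277, and WT+R against WT 207, 677, 263, 542 and 8. DESeq2 with the block gave 933, 157, 396, 1123 and 978 for these comparisons in the same order, and the test over all groups went from 1139 to 3439 with the block and 3041 with DESeq2.

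Small log2 fold changes turned direction. With the block, Sox4 in KO+P against KO was 0 in edgeR and 0 in DESeq2, and Sox11 in WT+R against WT was −0.31 and −0.25. With effective lengths, the genotype difference of Sox18 under propranolol was 0.02. Leaving out single libraries gave −0.02 to 0.41 for Sox18 in KO against WT, and in KO+P against KO −0.19 to 0.31 for Sox7 and −0.14 to 0.17 for Sox4. In KO+R against KO it gave −0.15 to 0.20 for Sox7, −0.16 to 0.01 for Sox17 and −0.24 to 0.16 for Sox18. In WT+P against WT it gave −0.23 to 0.87 for Sox7, −0.41 to 0.28 for Sox17 and −0.52 to 0.09 for Sox4. In WT+R against WT it gave −0.17 to 0.01 for Sox17, −0.08 to 0.54 for Sox4 and −0.39 to 0.42 for Sox11. The genotype difference under propranolol ranged from −1.40 to 1.90 for Sox18 and from −0.28 to 1.53 for Sox11. With TPM in place of CPM, the log2 ratio of group means of Sox17 moved without turning direction. It was −0.25 in KO+R against KO and −0.22 in WT+R against WT. In the comparisons with propranolol the direction of Sox18 and Sox11 was the same under every alternative run. With 2 or 3 cultures a group and 5 to 13 counts of Sox11 per library in WT, WT+R and KO+R, small changes were not detectable.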

Other observations

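The 3 genes with patterns most like Sox7 over the 16 libraries were Tiprl (r = 0.907), Gpn1 (r = 0.895) and B4galt3 (r = 0.889), whose levels ranged from 47.3 to 67.0, from 19.7 to 30.6 and from 23.4 to 52.8 CPM. For Sox17 the highest correlations were lower, with Dmxl2 (r = 0.776), Ppp1r15b (r = 0.739) and Ptprj (r = 0.736). Between members, the correlation of log2 CPM was −0.65 for Sox18 and Sox11 and −0.70 for Sox4 and Sox11. These libraries share treatments and replicate numbers, so the values are descriptions.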
